A study of Begonia x semperflorens-cultorum with 3 samples.

Results

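In begonia leaves, 35 assembled genes belonged to the most abundant transcripts and were also raised by 2-fold or more in the low-temperature library over the control library. They were chosen by their measured counts: a mean scaled count of at least 10000 over both libraries and a fold of at least 2, out of 74779 assembled genes. Scaled counts are the deposited estimated counts, rounded and brought to a common library size by TMM, the trimmed mean of M-values, and 1 was added before a fold was taken. The counts and folds that follow therefore describe the genes and test nothing.

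The leaves came from Begonia x semperflorens-cultorum, a bedding begonia, of the cultivar named Super Olympia. The low-temperature library (LT) was made from plants kept at 15/5 °C and the control library (CK) from plants kept at 25/15 °C, both in light of 300 μmol per square metre per second. Each library pooled 4 parallel samples of its treatment, so there is 1 library per condition, no spread between plants could be measured, and no p-value was computed. The other library of the series, grown under stronger light, was quantified on another assembly: of the 14 single-isoform genes described here whose number also occurs in that library, 0 had the same length there, and it was not joined. LT held 18836786 rounded counts and CK held 17223244.

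Leaves moved to cool conditions remodel their mRNA as part of cold acclimation. Known responses of this kind in other plants include transcripts for protective proteins that bind water or membranes, for sugar and lipid metabolism, for chaperones and for flavonoid pigments such as anthocyanins, whose synthesis the series is concerned with. The files pair no gene number with a name, a sequence or a genome position, so the 35 genes could not be assigned to any of these groups, no pathway could be counted, and markers of leaf cell types could not be looked up. For this reason the genes are described by their length in bases, their number of isoforms and their levels, and gene numbers are given for 2 of them. In whole leaves, more cells of a type and more RNA per cell cannot be told apart.

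Together the 35 genes held 8.20% of all LT counts (exact Clopper-Pearson 95% interval 8.19 to 8.21%) and 1.68% of all CK counts (1.67 to 1.68%). These intervals, like all those below, cover counting error only. Corrected for length, in the length-corrected unit TPM that the authors deposited, their levels summed to 58123 TPM in LT and 10129 TPM in CK. A larger share in LT follows from the choice of the genes, and the TPM values rest on the same counts, so both sums give the size of the block and no test of it. Of the 50 most abundant genes by count, 27 belonged to the group in LT and 2 in CK. All 35 ranked within the first 85 genes in LT, whereas in CK their ranks ran from 9 to 19144, with a median of 407.

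The rule called 20.5% of the 171 genes of this abundance higher in LT, and 44.4% of them were at least 2-fold lower. The count of 35 stands beside a background of 18742 genes that reached 50 counts in either library, of which 16.8% were higher in LT by 2-fold or more and 14.0% lower by as much. The median log2 fold was 2.29 over the 35 genes, -0.76 over the 171 and 0.02 over the 18742. The rule used this contrast, so nothing is read from the first of these medians.

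**Figure D1:**
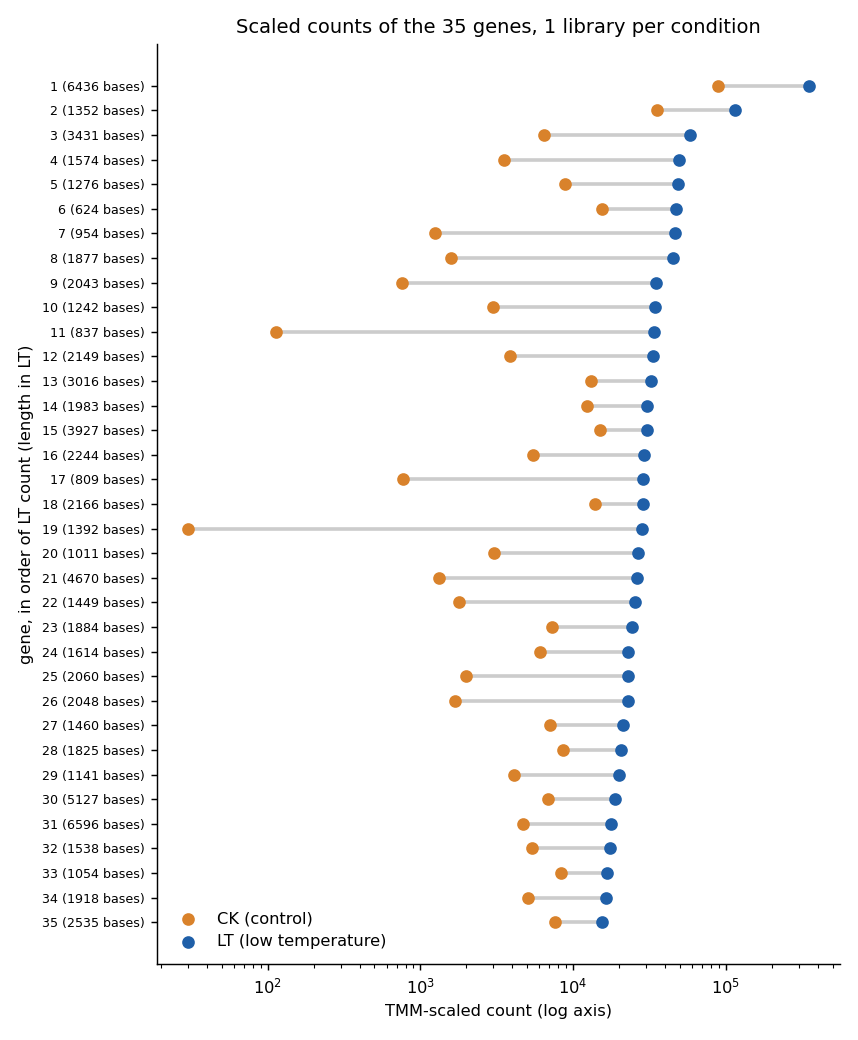
Scaled counts of the 35 genes (log axis) in CK (orange) and LT (blue), 1 library each, from the highest to the lowest LT count, with the length of each gene in LT. The LT values run from 15430 to 352247, and the CK values from 30.1 to 88866.

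The most abundant of them, and of all genes in LT, was c28758.graph_c0, a single sequence of 6436 bases. LT held 377164 counts of it and CK 82580, which is 2.002% and 0.479% of the library, and its level was 3803 TPM in LT against 897 TPM in CK. It was already the ninth gene by count in CK, and its log2 fold was 1.99 (95% interval from counting error, 1.976 to 1.998). This gene alone made up 24.4% of the group's counts in LT and 28.6% in CK. Without it, an alternative added once its value was known, the other genes held 6.20% of LT counts and 1.20% of CK counts.

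Next by count came a gene with 14 isoforms, with 123459 counts in LT and 32920 in CK, at 6302 and 1321 TPM. Its level in LT was the highest of the 35 per length. A gene of 624 bases, the shortest of the group, reached 50134 counts in LT against 14372 in CK. It came sixth by LT count but second per length, at 6116 TPM in LT and 1847 TPM in CK, and in CK it had the highest level of the group. At the other end, the longest gene, of 6596 bases, reached 18840 counts in LT against 4345 in CK, and at 185 TPM in LT and 46.0 TPM in CK it was the lowest of the group per length in LT.

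**Figure D2:**
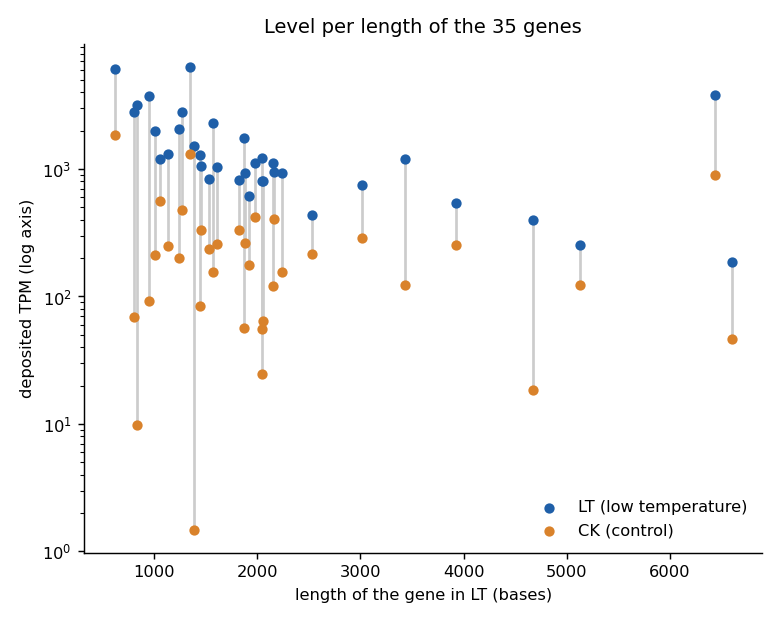
Deposited TPM (log axis) of the 35 genes against their length in LT in bases, with LT in blue and CK in orange, 1 library each. The level in LT runs from 185 TPM for the longest gene, of 6596 bases, to 6302 TPM, and the 6436-base gene stands apart from the other long genes at 3803 TPM.

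Per length, 21 of the 35 genes reached 1000 TPM in LT and 2 did in CK. The 9 genes at or above 2000 TPM in LT had no counterpart in CK, where 0 of the 35 reached that level. The median level was 1116 TPM in LT and 201 TPM in CK. The 136 other genes of this abundance had a median of 467 TPM in LT and 1040 TPM in CK. The choice of the 35 by their fold builds in this order, since it takes every abundant gene that was 2-fold higher in LT out of the 136.

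The 35 genes are grouped here by how much of each transcript the control library already held. The rule sets no floor under the CK count. A wide range in CK, and higher folds at lower CK counts, are therefore built in by the choice. In 7 genes the scaled CK count was itself at or above 10000, and their log2 folds lay between 1.02 and 1.99. These 7, which include the 6436-base, the 14-isoform and the 624-base genes, supplied 44.1% of the group's counts in LT and 62.5% in CK. The other 4 were close to each other in LT. A gene of 3016 bases reached 34422 counts in LT against 12203 in CK. A gene of about 1983 bases with 6 isoforms had 32819 and 11374. A gene of 3927 bases had 32692 and 14035, and another with 6 isoforms, of about 2166 bases in LT, had 30797 and 12859. All 4 were transcripts that both libraries held in quantity.

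A further 12 genes had a scaled CK count from 5000 to below 10000, with log2 folds from 1.01 to 3.17. The highest fold here belonged to a single sequence of 3431 bases, at place 3 of the group by LT count, with 62135 counts in LT against 5984 in CK and levels of 1192 and 123 TPM. It was followed by a gene of about 1276 bases with 4 isoforms, with 51843 against 8224 counts and levels of 2818 and 473 TPM. Both were far up the LT ranking, at places 8 and 12, and at places 314 and 211 in CK. A gene with 9 isoforms, of about 2244 bases, reached 31320 counts in LT against 5087 in CK. Single sequences of 1884, 1614 and 1460 bases lay between 22657 and 25948 counts in LT and between 5673 and 6799 in CK. The other 6 of the 12 had from 16522 to 22021 counts in LT and from 4679 to 7953 in CK, and none of them was a single sequence.

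In 6 genes the scaled CK count was from 2000 to below 5000, and their log2 folds ran from 1.91 to 3.80. The highest was in a gene with 3 isoforms and about 1574 bases, with 52718 against 3280 counts and levels of 2285 and 154 TPM. A gene with 7 isoforms reached 37036 counts in LT against 2760 in CK. A single sequence of 2149 bases had 35777 and 3611, a gene of about 1011 bases with 4 isoforms had 28463 and 2803, and a single sequence of 1141 bases had 21370 and 3795. The sixth was the 6596-base gene.

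The remaining 10 genes had a scaled CK count under 2000, and their log2 folds ran from 3.53 to 9.84. They held 21.9% of the group's counts in LT and 3.64% in CK, and 7 of the 10 were single sequences. Their LT levels lay close together, from 22986 to 46508 scaled counts, while their CK levels were spread from 30.1 to below 2000. The rule sets a floor under the LT count of a gene and none under its CK count.

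The extreme of these was c32525.graph_c0, a single sequence of 1392 bases. LT held 30451 counts of it and CK 28, at levels of 1506 and 1.48 TPM. The log2 fold was 9.84, with an interval from counting error of 9.35 to 10.5. It ranked 33 in LT and 19144 in CK, so it was a main transcript of the LT library and a trace in the CK library. A gene of 837 bases came next, with 36453 counts in LT against 106 in CK, at levels of 3161 and 9.75 TPM. Its log2 fold was 8.21, with an interval of 7.95 to 8.51, and by its level per length it was the fifth of the group in LT.

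A gap in fold followed, and 5 single sequences then lay between 4.32 and 5.52 on the log2 scale. The gene of 2043 bases reached 37211 counts in LT against 704 in CK, at 1224 and 24.8 TPM. The gene of 809 bases had 30836 and 716, at 2780 and 68.4 TPM. The gene of 954 bases had 49798 and 1160, at 3727 and 92.3 TPM. Per length, the 809- and 954-base genes thus stood beside the 837-base gene among the highest of the group in LT. The gene of 1877 bases reached 48359 counts in LT against 1480 in CK, at 1739 and 57.0 TPM. The gene of 4670 bases had 28217 and 1226, and with 395 and 18.4 TPM it was far lower per length than by count.

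The last 3 of the 10 had 2 isoforms each. A gene of about 1449 bases reached 27311 counts in LT against 1673 in CK. The other 2 resembled each other in length and level: one of about 2060 bases reached 24654 counts in LT against 1850 in CK, and one of about 2048 bases had 24612 and 1568. Their levels were 804 and 807 TPM in LT and 64.7 and 55.1 TPM in CK. Whether these 2 genes share sequence was not tested.

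**Figure D3:**
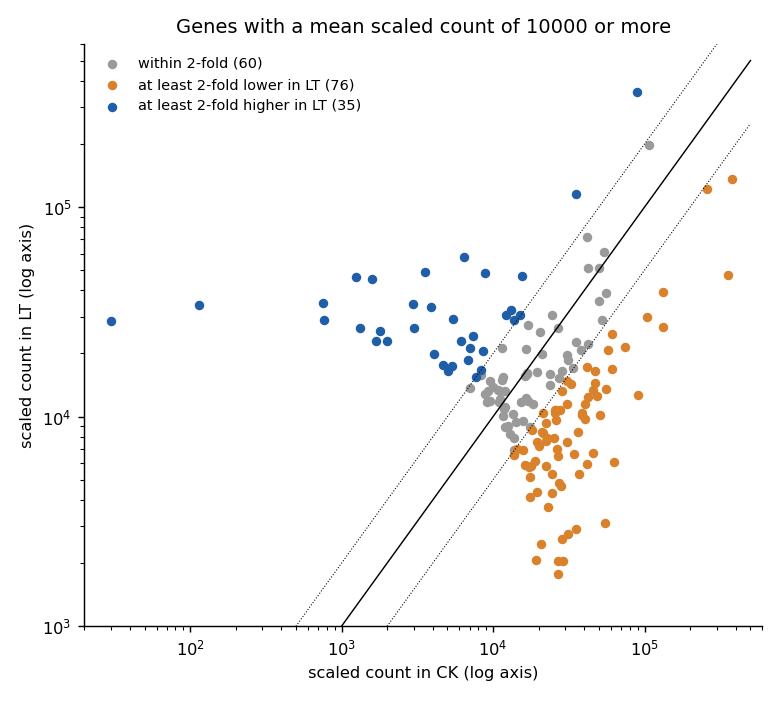
Scaled counts in CK (x) and LT (y), both on log axes, of the 171 genes with a mean scaled count of at least 10000, 1 library per condition. The solid line marks equal counts and the dotted lines 2-fold differences. The 35 genes higher in LT (blue) reach down to 30.1 scaled counts in CK, while the 76 genes lower in LT (orange) reach down to 1779 in LT.

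The rule chose on these values, so the following counts describe both directions and test no difference between them. Of the 35, 10 had fewer than 2000 scaled counts in CK. Of the 76 genes lower in LT, which the mirrored rule would choose, 1 had fewer than 2000 in LT, with 1779. These 2 numbers depend on the limit of 2000. The next LT counts among the 76 were 2042, 2049 and 2064, just above it, while the CK counts nearest to it among the 35 were 1991 and 2970. The median log2 fold of the 76 was -1.79 and the lowest was -4.13, against 2.29 and 9.84 among the 35. At least 8-fold higher were 15 of the 35, or 8.77% of the 171 abundant genes, and 5.85% of the 171 were at least 8-fold lower. Among the 18742 genes the same shares were 5.29% and 2.71%. Those 15 genes held 2.94% of LT counts (95% interval 2.93 to 2.95%) and 0.168% of CK counts (0.166 to 0.170%). None of these values has a replicate check.

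In length and isoform number, which the rule did not use directly, the 35 genes differed little from the 136 other genes of their abundance. Their median length was 1877 bases, with quartiles of 1314 and 2205, against 1692 bases with quartiles of 1129 and 2388. Single sequences were 17 of the 35 (48.6%) and 62 of the 136 (45.6%). The median isoform number was 2 in both, and 3 of the 35 against 17 of the 136 had at least 10 isoforms. Both groups had a higher median length than the 18742 genes compared, whose median was 1258 bases. Counts rise with length, and both groups had to reach a mean of 10000, whereas the 18742 needed 50 counts in either library. The choice by count thus favours longer genes, and no trait is read from this difference.

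Within the group, single sequences had the higher median fold, which is a description only, since the rule chose the genes by their fold. The median log2 fold was 3.10 over the 17 single sequences and 1.81 over the 18 genes with several isoforms, and 9 of the 17 against 6 of the 18 were at least 8-fold higher. Among the other abundant genes, the median size of the log2 fold, in either direction, was 1.49 over 62 single sequences and 0.89 over 74 genes with several isoforms. A change of at least 8-fold in either direction was seen in 5 of those 62 and 5 of those 74. Whether isoform number and fold are related differently in the 35 genes was not tested.

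For a gene with several isoforms the deposited length is a mean weighted by the abundance of its isoforms, so a change of length between the libraries reflects a change in the estimated mixture of isoforms. In 3 of the 18 genes with several isoforms this length differed by more than 1.1-fold between LT and CK. The same held for 3 of the 74 other abundant genes with several isoforms (4.05%), and for 11.4% of the 9590 genes with several isoforms that reached 50 counts in both libraries. The share of 16.7% among the 18 rests on 3 genes. In the remaining 15 genes, the ratio of the LT length to the CK length lay between 0.95 and 1.07.

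The 3 genes moved in both directions. The 14-isoform gene had a mean length of 1352 bases in LT and 1805 in CK, a ratio of 0.75. The transcripts counted for it in LT were thus shorter on average, and its log2 fold was 2.25 from TPM against 1.70 from counts. A gene with 6 isoforms and 20017 counts in LT against 6374 in CK had a mean length of 5127 bases in LT and 3653 in CK, a ratio of 1.40. Its log2 fold was 1.45 from counts and 1.05 from TPM, at 254 TPM in LT and 123 TPM in CK. The gene with 7 isoforms, described above with 37036 counts in LT, had 1242 bases in LT and 1035 in CK, a ratio of 1.20, and its log2 fold was 3.54 from counts and 3.37 from TPM. The changes in these 3 genes were wider than any among the other 74 abundant genes with several isoforms, whose widest change was 1.12-fold. The 2 sets are unlike in fold by choice: the median size of the log2 fold was 1.81 over the 18 genes and 0.89 over the 74. Whether length change goes with fold was not tested. The 3 changes were not the widest in these libraries: among the 9590 genes with several isoforms, the widest change was 3.92-fold.

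**Figure D4:**
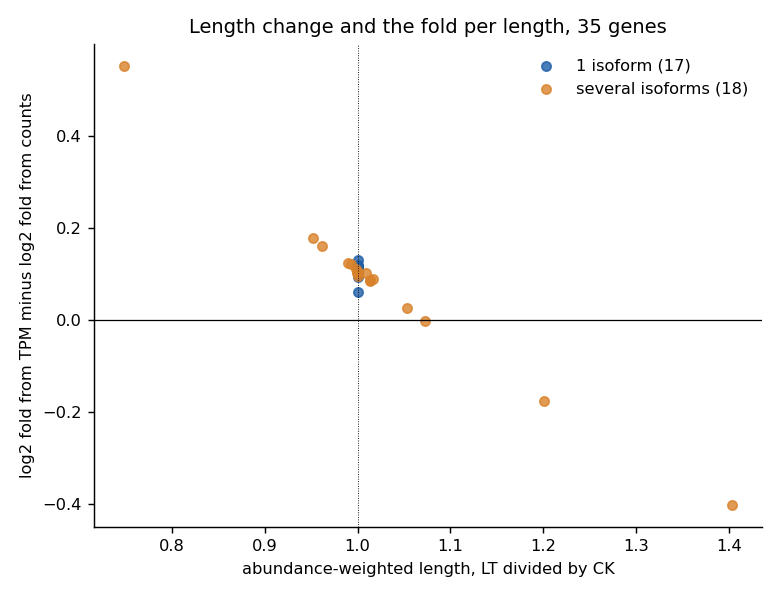
Difference between the log2 fold from deposited TPM and the log2 fold from scaled counts (y) against the ratio of the abundance-weighted lengths, LT divided by CK (x), for 17 single sequences (blue) and 18 genes with several isoforms (orange). The single sequences sit at a ratio of 1 with differences from 0.06 to 0.13, and 3 genes, at ratios of 0.75, 1.20 and 1.40, lie apart.

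Among the single sequences, whose length is the same in both files, the log2 fold from TPM exceeded that from counts by a median of 0.10. The median over the 18742 genes was 0.11. By TPM each of the 35 was higher in LT by 2-fold or more, and by FPKM, the other deposited unit per length, 34 were. Both units rest on the same counts that chose the genes, so neither is a second check of the folds.

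The assembler's numbering places some genes as separate subgraphs of 1 component, and reads can be split between such subgraphs where they are alike. Of the 35 genes, 7 had other subgraphs in their component, and each was far above them in LT. The largest was a subgraph of the 7-isoform gene's component, with 1878 counts in LT and 95 in CK, a log2 fold of 4.09, while another of the same component had 337 and 592. The 2048-base gene had a neighbour with 36 isoforms, with 1011 counts in LT and 602 in CK. The 1574-base gene had one with 666 and 202. How much sequence the subgraphs share was not tested.

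Fractional counts arise where the estimate divides reads among several sequences. All 35 genes had a fractional count in LT (a departure from a whole number of more than 0.004), as did 131 of the 136 other abundant genes. In CK 25 of the 35 (71.4%) had one, against 134 of the 136 (98.5%). The choice by fold gives the 35 lower CK counts, with a median of 5385 scaled counts against 25013 in the 136. These shares thus compare genes at unlike CK levels, and no trait of the group is read from them. The 10 genes with a whole CK count had from 28 to 5673 counts there, and both c32525.graph_c0 and the 837-base gene were among them.

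The limits of the rule passed through neighbouring values. Among genes with a fold of at least 2, the lowest means inside the limit were 10738 and 11136 scaled counts, and the highest outside it were 9688 and 9545. The gene with a mean of 9688 had 18483 scaled counts in LT and 894 in CK, a fold of 20.6. Among the abundant genes, the lowest folds inside were 2.01, 2.02 and 2.02, and the highest outside were 1.94, 1.91, 1.86 and 1.84. The last belonged to a single sequence of 7273 bases with 197141 scaled counts in LT and 107163 in CK. For 3 of the 35, of 1054, 2535 and 3927 bases, the counting interval of the fold reached below 2. With upper-quartile scaling these and the 2166-base gene fell below 2-fold, and by FPKM the 2535-base gene did.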

How the data were processed

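Poly-A RNA was sequenced from leaves, per the labels' protocols. For each gene the authors deposited expected counts together with TPM and FPKM, per the file headers. Assembler, aligner and quantifier: not given in the sources used here. Expected counts were rounded, and LT and CK were scaled by TMM in edgeR 4.0.16 (R 4.3.3) on these 2 libraries. HL, on another assembly, was left out. TPM and FPKM had 0.1 added before a ratio was taken. Fold intervals are exact conditional binomial and share intervals exact Clopper-Pearson, at 95%. Copies of 1 molecule may be counted apart, so intervals may be too narrow. With no gene names, the 2 gene numbers printed are those of the highest LT count and the highest fold. The members, and the features described, were chosen with earlier results of these data known. The step that picks the genes was also run on simulated data. That run concerns only the working of the step. It gives no evidence on the limits used here, on the genes chosen or on spread between libraries. DESeq2 1.42.0 size factors were an alternative. Other steps used pandas 2.3.3, scipy 1.17.1 and matplotlib 3.10.9 in Python 3.11.15.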

Additional observations from a re-analysis of the deposited data

How the results depend on the processing

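With 1 library per condition no library could be left out. No paired analysis was possible because each condition has 1 library and the result comes from no test. The 35 genes became 36 with DESeq2 size factors, 37 with the total count, 31 with the upper quartile, and 35 with TMM without the 100 most abundant genes, with unrounded counts and with 0.5 or 10 added. The rule's own limits moved the number more. A mean minimum of 5000 gave 107 genes and of 20000 gave 12. Requiring 10000 in the lower library gave 7, and in the higher library 73. A fold limit of 4 gave 18, single sequences gave 17, and TPM with a mean minimum of 397.5 TPM in place of the count minimum gave 63, of which 31 were among the 35. The 4 genes lost there were below this minimum, since all 35 kept a TPM fold of at least 2. The minimum is printed rounded, and a gene with 618.7 TPM in LT and 176.2 TPM in CK lay next to it. In the order minimum 5000, minimum 20000, lower library, higher library, and fold limits 1.5, 3 and 4, the share of LT counts was 12.7, 5.02, 3.62, 11.1, 10.3, 6.98 and 3.50%, and of CK counts 2.48, 1.16, 1.05, 1.97, 2.77, 1.18 and 0.267%. Without the gene with the most counts the shares were 6.20% and 1.20%. The median log2 fold, 2.29, was 2.34 with DESeq2 size factors, 2.36 with the total count, 2.20 with the upper quartile, 2.40 from TPM and 2.38 from FPKM.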

Other observations

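The numbers that the assembler gave to components were not spread evenly over the abundant genes. A run of 50 successive component numbers, noticed after the values were seen, held 51 genes, of which 24 had a mean scaled count of at least 10000. Of these, 6 were among the 35 genes raised in LT, 15 were at least 2-fold lower and 3 lay within 2-fold. All 6 were single sequences, with log2 folds from 1.29 to 8.21. The run held 17.1% of the 35 genes and 13.2% of the 136 other abundant genes, but 0.267% of the 18742 genes compared. The ends of the run were set with the abundant genes in view, so these shares describe it and test nothing.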
